A study of Mus musculus with 9 samples.

Results

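The 8 genes described here take part in the uptake of apoptotic cells by macrophages. They are the receptors Mertk, Axl, Tyro3 and Havcr2, the secreted bridges Gas6, Pros1 and Mfge8, and the intracellular adaptor Elmo1. They were chosen by symbol from the 24411 genes of the deposited expression table, and all 8 were found in it. Expression was measured by RNA-seq in 9 lines of C57BL/6 mouse macrophages, 3 each from yolk sac (YS lines, from embryos), fetal liver (FL lines, from fetuses) and bone marrow (BM lines, from adult mice), and the question was how macrophages differ with their origin. The labels name no genotype or treatment, and all 9 lines were expanded by long-term culture in recombinant human M-CSF, a macrophage growth factor. Each line was a bulk culture grown out of pooled tissue. Because lines of 1 group may share their source animals, the p-values measure the spread between lines only.

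Macrophages clear dying cells by recognising phosphatidylserine, a lipid that apoptotic cells expose on their surface. MERTK, AXL and TYRO3 (the TAM receptor tyrosine kinases) do not bind this lipid themselves but bind the bridges GAS6 and protein S, the product of Pros1. MFGE8 links the lipid to integrins, TIM-3 (Havcr2) binds it directly, and ELMO1 acts with DOCK proteins to switch on RAC1, which drives the membrane around the corpse.

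Values are TPM, a measure of transcript abundance that is scaled for transcript length and so can be set side by side between genes. TPM keeps no read depth, so counting error is unknown here and the spread over 3 lines is the only error available. Groups were compared with limma on log2(TPM + 1) in 1 fit over all 9 lines, and a gene was called when its Benjamini-Hochberg adjusted p was under 0.1 and its difference was more than 2-fold. The 3 comparisons share their groups and are not independent of each other. The filter (1 TPM or more in at least 3 lines) left 11753 genes, among them 7 of the 8, while Tyro3 failed it. The exact permutation test of 1 gene, 3 lines against 3, cannot go below p = 0.1.

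All 10 macrophage markers examined were expressed in the lines, with Csf1r between 1086 and 2441 TPM, and all 8 fibroblast or stroma markers stayed under 1 TPM in every line. YS line 1 had the lowest summed macrophage marker level, 9017 TPM against 12659 to 34195 TPM in the other lines. BM line 2 stood apart from the other BM lines in 2 ways. It carried 214.99 TPM of the erythroid transcript Hba-a1, against at most 8.62 TPM elsewhere, and over 45 genes nearly absent from BM lines 1 and 3 but at 20 TPM or more in YS line 2, it held a median of 14.1% of the YS line 2 level. Markers of other cells also moved with the groups. The endoderm or hepatocyte list (3 of 6 genes reached 1 TPM) summed to 70.2 to 127.6 TPM in YS lines, 113.9 to 128.7 TPM in FL lines and 5.57 to 16.7 TPM in BM lines. Trf was the largest part of it in YS and FL lines and Afp in BM lines, while Alb, Ttr and Apoa1 stayed at 0.21 TPM or below. The osteoclast list (4 of 6 genes) summed to 97.1 to 1286 TPM in BM lines, mostly from Ctsk, and to 6.20 to 51.7 TPM in YS lines, mostly from Dcstamp (called higher in YS than in BM lines), with Calcr at 0.04 TPM or below. The endothelium list (3 of 6 genes) summed to 3.16 to 67.0 TPM, 22.1 to 93.9 TPM and 38.7 to 44.9 TPM in YS, FL and BM lines, with Emcn at 0, and within it Kdr was called higher in YS and FL than in BM lines and Vwf lower in YS than in BM lines. Neutrophil S100a8 was called in all 3 comparisons and was highest in FL lines, and erythroid Epor was called higher in YS and FL than in BM lines. Among the macrophage markers, Fcgr1 and Aif1 were called lower in BM lines than in both other groups, and Lyz2 was called lower in YS lines than in both others. Their part in the results below was not tested. In a bulk culture, fewer cells of a type and less RNA per cell cannot be told apart. The median log2 difference over all genes tested was 0.11 for YS against BM lines, 0.09 for FL against BM lines and 0.02 for YS against FL lines. Quantile normalization removed this shift, and the calls over all genes then split into 712 genes above and 783 below BM lines for the YS group (890 and 614 without it), and into 597 and 598 for the FL group (706 and 505 without it).

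The DNA just upstream of 4 of the genes is shown because these 4 (Mertk, Axl, Gas6 and Pros1) were each called in at least 1 comparison with BM lines. Each run is the 250 bases before a RefSeq transcript start in the GRCm38.p6 build, read 5′ to 3′ on the strand of the gene. For Pros1, but not for Mertk, Axl or Gas6, the bases just after the start were found in a GENCODE transcript of the gene. Capitals mark matches, on either strand, to the GC box GGGCGG and to the PU.1 core GAGGAAG, so that a match on the other strand reads CCGCCC or CTTCCTC.
Mertk, chr2:128698665-128698914, plus strand: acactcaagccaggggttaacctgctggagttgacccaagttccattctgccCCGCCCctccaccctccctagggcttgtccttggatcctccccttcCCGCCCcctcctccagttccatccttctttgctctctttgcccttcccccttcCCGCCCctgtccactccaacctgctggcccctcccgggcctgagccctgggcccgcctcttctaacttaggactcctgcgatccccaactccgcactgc
Axl, chr7:25788734-25788983, minus strand: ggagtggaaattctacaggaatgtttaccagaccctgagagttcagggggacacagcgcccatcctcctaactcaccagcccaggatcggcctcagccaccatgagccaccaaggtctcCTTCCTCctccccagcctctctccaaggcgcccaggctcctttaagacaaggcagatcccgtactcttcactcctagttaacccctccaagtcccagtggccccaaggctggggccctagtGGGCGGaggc
Gas6, chr8:13494536-13494785, minus strand: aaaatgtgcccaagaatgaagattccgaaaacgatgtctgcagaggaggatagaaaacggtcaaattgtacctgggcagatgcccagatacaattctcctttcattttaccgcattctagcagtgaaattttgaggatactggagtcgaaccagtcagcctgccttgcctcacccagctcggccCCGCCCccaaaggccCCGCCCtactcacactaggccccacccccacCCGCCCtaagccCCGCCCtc
Pros1, chr16:62854057-62854306, plus strand: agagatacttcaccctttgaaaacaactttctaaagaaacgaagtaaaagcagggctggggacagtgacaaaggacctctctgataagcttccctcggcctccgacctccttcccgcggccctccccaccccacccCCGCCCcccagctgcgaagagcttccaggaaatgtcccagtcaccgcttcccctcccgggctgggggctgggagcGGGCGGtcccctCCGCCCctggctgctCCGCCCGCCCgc
The Mertk window held 3 GC box matches, the Axl window 1, the Gas6 window 4 and the Pros1 window 5, of which the last 2 overlap. The PU.1 core matched in Axl but in none of the other 3 windows. Over the 32851 windows of all genes, 32.7% held the GC box and 10.6% the PU.1 core. Of the 8 genes, 7 had a GC box match in some window (Havcr2 had none) and Axl and Havcr2 had a PU.1 core match. This counts genes, of which Elmo1 had 2 windows, whereas the shares count windows. The member windows with a GC box were 54.8% to 73.2% G or C, beside a median of 52.4% over all windows. The AP-1 site TGANTCA (6.75% of all windows) matched in Havcr2 alone among the 8, and the MAF recognition core TGCTGAC (3.81%), the E-box CACGTG (6.02%) and the tandem IRF site (2.98%) matched in none. These are letters in a window of fixed length and say nothing of what binds there.

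YS lines carried Axl beside Mertk, whereas FL and BM lines carried Mertk at different levels (see the plot of each gene by line). Mertk was the only TAM receptor over 1 TPM in FL and BM lines, and it was highest in FL lines. Axl exceeded 7 TPM in each YS line and was near 0 elsewhere. Tyro3 was low in all 9 lines.

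**Figure D1:**
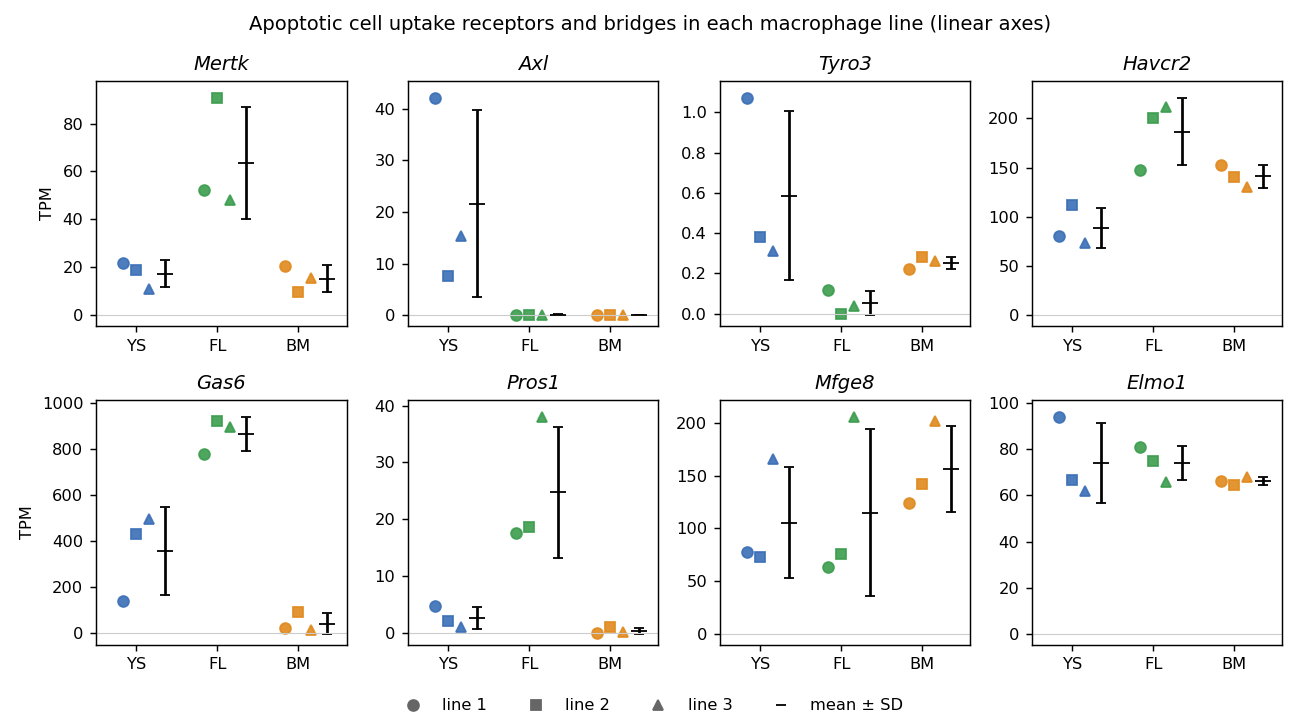
TPM of the 8 genes in each of the 9 lines on linear axes that differ between panels. Circles, squares and triangles are lines 1, 2 and 3 of the YS, FL and BM groups, and bars give the mean ± SD (n = 3). Axl was at 7.59 to 41.98 TPM in YS lines and at most 0.13 TPM elsewhere, while Gas6, Pros1 and Mertk were highest in the FL lines.

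MERTK is the main TAM receptor of resident macrophages. Its transcript measured 21.93, 18.95 and 10.98 TPM (YS lines 1 to 3), 52.25, 90.52 and 48.14 TPM (FL lines 1 to 3) and 20.53, 9.67 and 15.70 TPM (BM lines 1 to 3). Every FL line was above every YS and BM line, whereas YS and BM lines overlapped. Mertk was 3.97-fold higher in FL than in BM lines on the TPM + 1 scale (log2 difference 1.99, SE 0.35, limma adjusted p = 0.0059) and lower in YS than in FL lines (log2 difference -1.82, SE 0.35, limma adjusted p = 0.0324). The latter call was lost when only the 6 YS and FL lines were fitted (adjusted p = 0.113) or when no gene was filtered out (adjusted p = 0.106). Between YS and BM lines the log2 difference was 0.17 with a 95% interval from -0.63 to 0.97 (limma adjusted p = 0.74).

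AXL, by contrast, is the TAM receptor that macrophages typically raise under inflammatory stimuli. Axl measured 41.98, 7.59 and 15.29 TPM (YS lines 1 to 3), 0.13, 0 and 0.09 TPM (FL lines 1 to 3) and 0.06, 0.12 and 0 TPM (BM lines 1 to 3). The YS lines spanned more than 5-fold among themselves, with line 1 highest, yet the lowest of them lay far above all other lines. The log2 difference was 4.10 (SE 0.49, limma adjusted p = 0.0018) against BM lines and 4.08 (SE 0.49, limma adjusted p = 0.0079) against FL lines. Without YS line 1 these log2 differences were 3.48 and 3.46 and both were still called. Their size depends on the pseudocount, since the other groups were near 0, and was 6.81 and 6.71 with a pseudocount of 0.1 and 2.42 and 2.42 with a pseudocount of 4. FL and BM lines were both too near 0 to be compared. Axl passed the filter through the YS lines alone, so it had to differ between groups once it was tested.

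TYRO3, the third TAM kinase, is best known from the nervous system. Tyro3 measured 1.07, 0.38 and 0.31 TPM (YS lines 1 to 3), 0.12, 0 and 0.04 TPM (FL lines 1 to 3) and 0.22, 0.28 and 0.26 TPM (BM lines 1 to 3). The groups did not overlap, but only YS line 1 reached 1 TPM, and no model was fitted to this gene in the main analysis.

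Summed over Mertk, Axl and Tyro3, the TAM transcripts came to 64.98, 26.92 and 26.58 TPM (YS lines), 52.50, 90.52 and 48.27 TPM (FL lines) and 20.81, 10.07 and 15.96 TPM (BM lines). YS and FL lines overlapped in this sum, and the BM lines were the 3 lowest. Mertk made up 33.7%, 70.4% and 41.3% of the sum in YS lines, against 99.5% to 100% in FL lines and 96.0% to 98.7% in BM lines. Axl was therefore the larger part in YS lines 1 and 3 (64.6% and 57.5%) and the smaller in YS line 2 (28.2%).

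**Figure D2:**
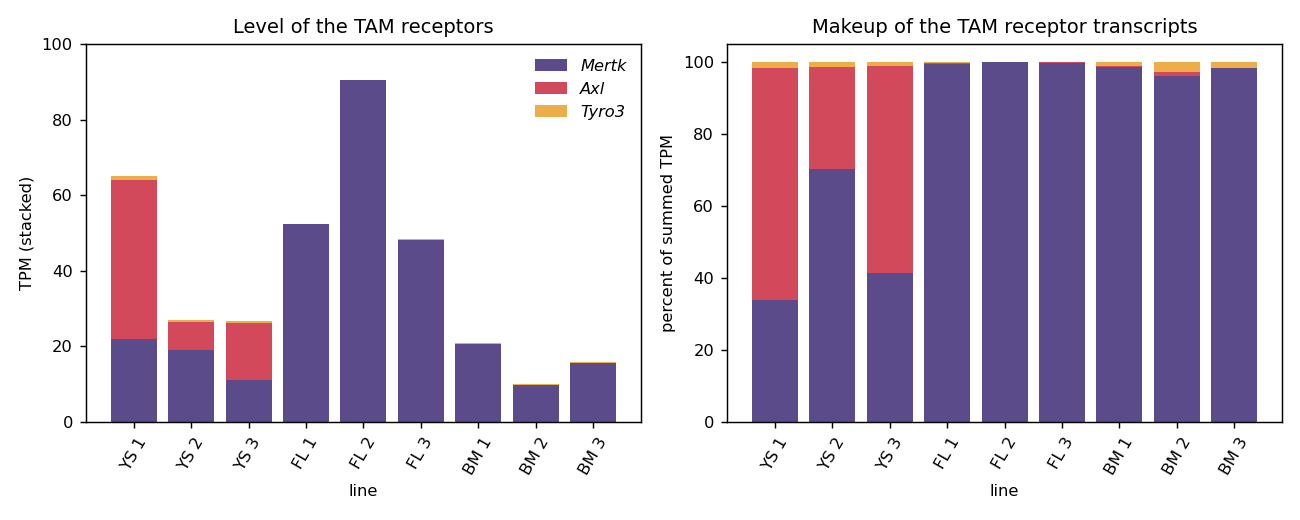
Left, stacked TPM of the TAM receptors Mertk, Axl and Tyro3 in each line; right, the share of each in that line's sum, in percent. Mertk made up at least 96.0% in each FL and BM line, and Axl made up 28.2% to 64.6% in the YS lines.

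Havcr2 encodes TIM-3, a receptor for phosphatidylserine that also binds galectin 9 and CEACAM1. Havcr2 measured 80.60, 111.69 and 73.84 TPM (YS lines 1 to 3), 147.83, 200.49 and 211.17 TPM (FL lines 1 to 3) and 152.66, 140.73 and 129.97 TPM (BM lines 1 to 3). The YS lines were the 3 lowest, and FL line 1 lay within the range of the BM lines. Havcr2 was lower in YS than in FL lines (log2 difference -1.07, SE 0.19, limma adjusted p = 0.0254), close to the 2-fold threshold. That call was lost without YS line 3 (log2 difference -0.95) or FL line 3 (-0.97), and when only the 6 lines were fitted (adjusted p = 0.122). Against BM lines the log2 difference was -0.68 (95% interval -1.11 to -0.26, limma adjusted p = 0.0277), which did not reach 2-fold. The log2 difference of FL from BM lines was 0.39 (95% interval -0.04 to 0.81, limma adjusted p = 0.18). Among the relatives of Havcr2, Timd4, encoding the tethering receptor TIM-4 of resident macrophages, was at 56.41 and 21.70 TPM in FL lines 2 and 3 but listed at 0 in FL line 1, and it did not exceed 0.08 TPM in YS and BM lines. Havcr1 and Timd2 were listed at 0 in all 9 lines.

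The bridges that bind TAM receptors were most abundant in FL lines. GAS6 is a vitamin K-dependent ligand of all TAM receptors. Gas6 measured 139.50, 431.78 and 497.91 TPM (YS lines 1 to 3), 780.05, 921.54 and 895.23 TPM (FL lines 1 to 3) and 21.14, 92.61 and 12.18 TPM (BM lines 1 to 3). The groups did not overlap, and the gene exceeded 98.4% to 98.7% of the genes tested in FL lines, 88.3% to 97.4% in YS lines and 31.7% to 83.3% in BM lines. Gas6 was 28.7-fold higher in FL than in BM lines on the TPM + 1 scale (log2 difference 4.84, SE 0.70, limma adjusted p = 0.0028) and 10.4-fold higher in YS than in BM lines (log2 difference 3.37, SE 0.70, limma adjusted p = 0.0108). The log2 difference of YS from FL lines was -1.47 (95% interval -3.07 to 0.13, limma adjusted p = 0.23), which was not called although each YS line was below each FL line.

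BM line 2 had more Gas6 than the other BM lines. Its excess over the mean of BM lines 1 and 3 (16.66 TPM) was 17.6% of the Gas6 level of YS line 2, beside the 14.1% (quartiles 10.7% and 17.7%) of the 45 genes described above. The part of that line's makeup in the result was not tested. Without BM line 2 the log2 difference from BM lines was 4.19 for YS lines (4.77 with YS line 1 also left out) and 5.66 for FL lines, and without BM line 3 it was 2.78 and 4.25. By the same measure the excess was 44.2% for Pros1 and 1.19% for Axl, and Mertk was lower in BM line 2 than in the other BM lines (-44.6%). Tmem255b lies on the opposite strand over part of Gas6 and was at most 0.14 TPM in any line.

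Protein S, the product of Pros1, is an anticoagulant plasma protein that also binds MERTK and TYRO3. Pros1 measured 4.62, 2.07 and 0.92 TPM (YS lines 1 to 3), 17.50, 18.54 and 38.03 TPM (FL lines 1 to 3) and 0, 0.94 and 0.05 TPM (BM lines 1 to 3). Each FL line was above each other line, while BM line 2 lay just above YS line 3. Pros1 was higher in FL than in BM lines (log2 difference 4.25, SE 0.46, limma adjusted p = 0.00096) and lower in YS than in FL lines (log2 difference -2.91, SE 0.46, limma adjusted p = 0.0202). With pseudocounts of 0.1 and 4 the former was 6.54 and 2.66, and the latter -3.41 and -2.10. Between YS and BM lines the log2 difference was 1.34 (SE 0.46, limma adjusted p = 0.0607). It was 3.13 with a pseudocount of 0.1 and 0.56, not called, with one of 4. This last call was also lost without YS line 1 (adjusted p = 0.146), YS line 2 (0.105), BM line 1 (0.177) or BM line 3 (0.170).

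Gas6 outweighed Pros1 in each line where both were detected. The ratio of their TPM was 30.2, 208.6 and 541.2 in YS lines, 44.6, 49.7 and 23.5 in FL lines, and 98.5 and 243.6 in BM lines 2 and 3 (Pros1 was listed at 0 in BM line 1). Pros1 was at 0.92 TPM in YS line 3, 0.94 TPM in BM line 2 and 0.05 TPM in BM line 3. The ratios of those lines rest on values near the floor, so their size is uncertain. Set against the summed TAM receptors, Gas6 was 2.15-fold, 16.0-fold and 18.7-fold in YS lines, 14.9-fold, 10.2-fold and 18.5-fold in FL lines, and 1.02-fold, 9.20-fold and 0.76-fold in BM lines. Gas6 was thus at most 2.15 times the summed receptors in YS line 1 and BM lines 1 and 3, and at least 9.20 times in each of the other 6 lines.

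Mfge8 and Elmo1 were not called in any comparison. MFGE8 is a milk fat globule protein that macrophages secrete. Mfge8 measured 77.17, 72.49 and 165.98 TPM (YS lines 1 to 3), 63.01, 75.51 and 205.70 TPM (FL lines 1 to 3) and 124.36, 141.68 and 202.07 TPM (BM lines 1 to 3). Line 3 was the highest of its group in all 3 groups, although nothing in the labels ties lines of 1 number together. The log2 difference from BM lines was -0.64 for YS lines (95% interval -1.71 to 0.43, limma adjusted p = 0.33) and -0.61 for FL lines (-1.69 to 0.46, limma adjusted p = 0.41), and that of YS from FL lines was -0.03 (-1.10 to 1.05, limma adjusted p = 0.98). These intervals leave room for differences of 2-fold and more. Without FL line 3, Mfge8 was called lower in FL than in BM lines (log2 difference -1.14, adjusted p = 0.084).

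Elmo1 measured 94.13, 66.64 and 61.79 TPM (YS lines 1 to 3), 81.07, 75.09 and 66.06 TPM (FL lines 1 to 3) and 66.18, 64.46 and 67.98 TPM (BM lines 1 to 3). All 3 groups overlapped, and the BM lines spread least (66.2 ± 1.8 TPM, SD, n = 3). The log2 differences were 0.14 for YS against BM lines (95% interval -0.23 to 0.50, limma adjusted p = 0.54), 0.16 for FL against BM lines (-0.21 to 0.52, limma adjusted p = 0.55) and -0.02 for YS against FL lines (-0.38 to 0.35, limma adjusted p = 0.96). Each interval stays within a 1.5-fold change, the narrowest of the 7 genes tested.

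Of the 7 genes tested, 3 (Axl, Gas6 and Pros1) were called between YS and BM lines, all higher in YS lines, where 12.8% of all genes were called (7.57% higher and 5.22% lower). Between FL and BM lines 3 (Gas6, Pros1 and Mertk) were called, all higher in FL lines, where 10.3% of all genes were called (6.01% higher and 4.30% lower). Between YS and FL lines Axl was called higher in YS lines and Pros1, Mertk and Havcr2 lower, 4 of 7 where 3.79% of all genes were called (1.95% higher and 1.85% lower). The share of all genes called in that last comparison was itself unsteady, with 446 genes called over all lines but 199 without FL line 2 and 191 without FL line 3. With YS line 1 and BM line 2 both left out, the counts among the 7 genes were again 3, 3 and 4. The counts for both comparisons of YS lines include Axl, which passed the filter through the YS lines alone and so had to differ. Non-overlapping groups were common in these data (49.0%, 49.5% and 26.1% of all genes tested), and passing the adjusted p alone, with no fold threshold, was common too (37.9%, 27.6% and 12.8%).

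**Figure D3:**
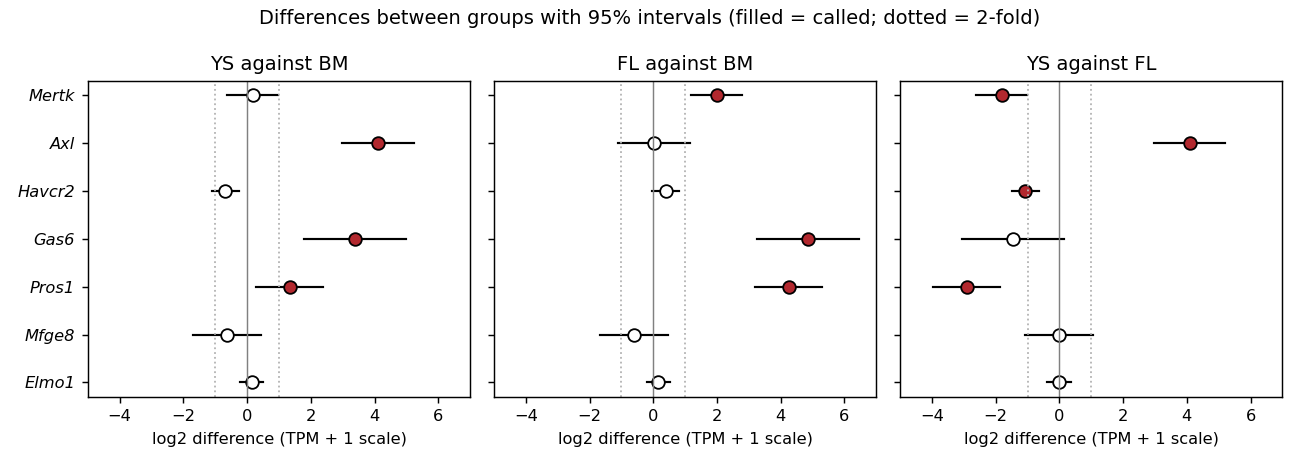
Log2 differences of the 7 tested genes on the log2(TPM + 1) scale with 95% intervals from limma, for YS against BM, FL against BM and YS against FL lines. Filled points were called (adjusted p under 0.1 and more than 2-fold). Axl stands above 4 in both comparisons of YS lines, and Gas6 and Pros1 above 4 in FL against BM lines.

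By the correlation of log2(TPM + 1) over the 9 lines, which share group structure, the genes most like each member were all different from those of the other members. Axl was closest to Trim6 (r = 0.995), Mrgpra2a (r = 0.995) and Wnt10b (r = 0.986), and Gas6 to Kif5c (r = 0.995), Znrf3 (r = 0.989) and B3glct (r = 0.986). Like Axl, Trim6, Mrgpra2a and Wnt10b were at 0.13 TPM or less outside the YS lines, so their r mostly sets YS lines against the rest. Trim6, Wnt10b, Kif5c and Znrf3 were low, at 4.98 TPM or less in every line. Pros1 was close to Nlrc3 (r = 0.980) and Zeb2os (r = 0.976), and Mertk to Pnpla8 (r = 0.981), Zfp398 (r = 0.969) and Tmem170b (r = 0.966). Havcr2 was closest to Dab2ip (r = 0.971), Naip2 (r = 0.966) and Dsel (r = 0.965), Mfge8 to Rilpl2 (r = 0.931), Emb (r = 0.896) and Derl1 (r = 0.872), and Elmo1 to Nprl2 (r = 0.972) and Kctd20 (r = 0.970). Each was among the 3 highest r of 11753 genes.

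Several direct partners of these proteins also differed between groups (see the plot of relatives and partners). MFGE8 is bound by the integrins that pair ITGAV with ITGB3 or ITGB5. Itgb3 measured 31.31, 14.58 and 2.47 TPM (YS lines) and did not exceed 0.41 TPM in any FL or BM line. It was called higher in YS than in BM lines (log2 difference 3.42, SE 0.68, limma adjusted p = 0.0092) and than in FL lines (log2 difference 3.29, SE 0.68, limma adjusted p = 0.0407), and like Axl it passed the filter only through the YS lines. Itgav was at 56.13 to 73.37 TPM in YS lines, 56.77 to 60.44 TPM in FL lines and 90.72 to 117.37 TPM in BM lines, and Itgb5 at 130.66 to 253.97, 264.99 to 302.42 and 183.47 to 221.55 TPM. Neither was called in any comparison, but Itgav passed the adjusted p against BM lines without reaching 2-fold. Its log2 differences from BM lines were -0.60 for YS and -0.76 for FL lines (limma adjusted p = 0.0143 and 0.0064).

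**Figure D4:**
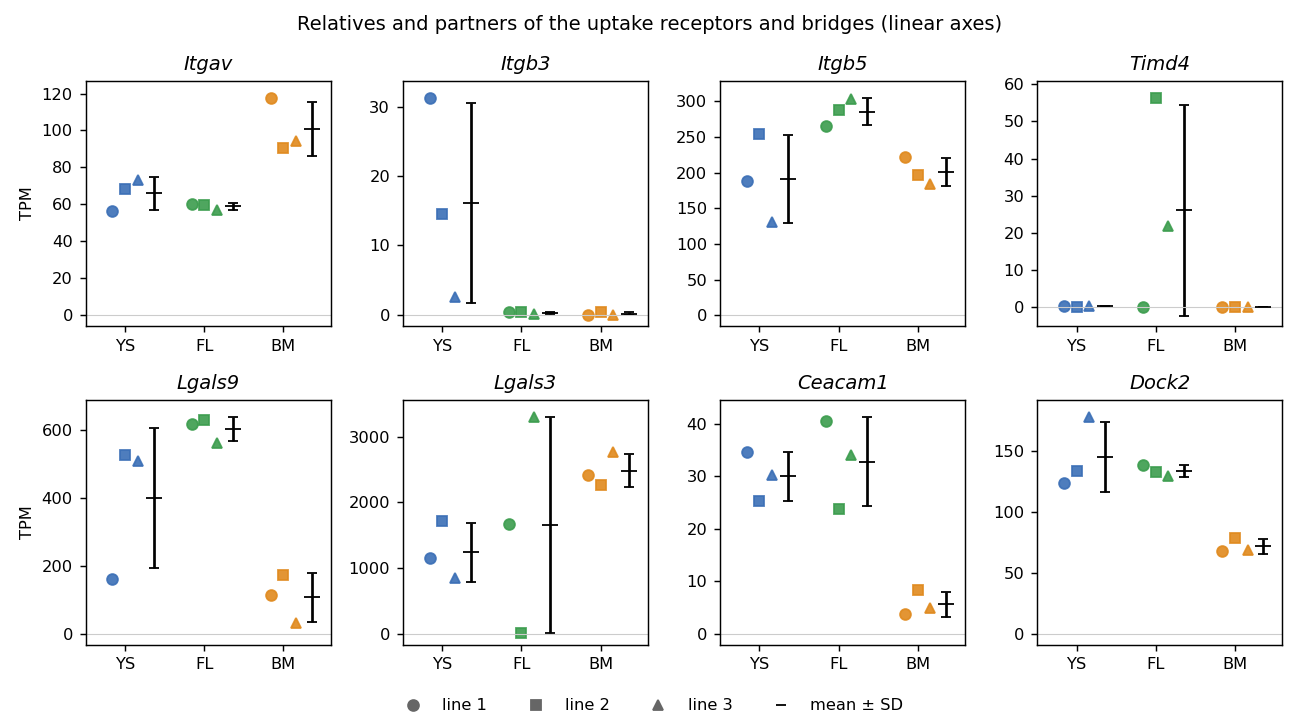
TPM of 8 relatives and partners of the uptake genes in each of the 9 lines, on linear axes that differ between panels. Symbols are lines 1, 2 and 3 and bars the mean ± SD (n = 3). Itgb3 was high in YS lines, Timd4 in FL lines 2 and 3, Lgals9 and Ceacam1 were lowest in BM lines as groups, and Lgals3 was 2.76 TPM in FL line 2.

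Of the TIM-3 ligands, Lgals9 and Ceacam1 were called in both comparisons with BM lines and Hmgb1 in none. Lgals9 (galectin 9) measured 160.75, 527.10 and 509.47 TPM (YS lines), 618.74, 628.89 and 563.34 TPM (FL lines) and 113.07, 174.31 and 32.58 TPM (BM lines). Its log2 difference from BM lines was 2.01 for YS lines (SE 0.62, limma adjusted p = 0.0435), although YS line 1 lay below BM line 2, and 2.79 for FL lines (SE 0.62, limma adjusted p = 0.0158). Ceacam1 measured 34.54, 25.25 and 30.22 TPM (YS lines), 40.58, 23.72 and 34.05 TPM (FL lines) and 3.74, 8.23 and 4.80 TPM (BM lines), with log2 differences of 2.28 (SE 0.28, limma adjusted p = 0.0018) and 2.38 (SE 0.28, limma adjusted p = 0.0012) from BM lines. Hmgb1, a nuclear protein that also binds TIM-3, was at 353.36 to 603.74 TPM over all lines and was not called. Lgals3 (galectin 3, a MERTK ligand) was at 840.52 TPM or more in 8 lines but at 2.76 TPM in FL line 2, and was not called.

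Among the partners of ELMO1, Dock2 was at 123.74 to 177.88 TPM in YS lines and 129.51 to 138.45 TPM in FL lines, against 68.10 to 78.87 TPM in BM lines. Its log2 differences from BM lines, 0.99 and 0.89 (limma adjusted p = 0.0030 and 0.0039), did not reach 2-fold. Dock5 was called lower in FL than in BM lines (log2 difference -1.06, SE 0.12, limma adjusted p = 0.0012), at 21.79 to 22.81 TPM against 41.96 to 50.83 TPM. YS lines lay between, at 27.48 to 34.50 TPM. Their log2 differences, -0.62 from BM lines and 0.43 from FL lines (limma adjusted p = 0.0092 and 0.0769), did not reach 2-fold. Dock1, Elmo2, Elmo3, Rac1 and Rhog were not called in any comparison. Without the fold threshold Elmo2 and Rhog passed in FL against BM lines (log2 differences 0.52 and 0.61, limma adjusted p = 0.0172 and 0.0152). Rhog also passed in YS against FL lines (log2 difference -0.47, limma adjusted p = 0.0765). Dock1 was at 21.70 to 34.81 TPM, Elmo2 at 31.53 to 54.43 TPM and Rac1, the switch itself, at 384.09 to 507.66 TPM over all lines. The proteases Adam10 and Adam17, of which the latter sheds MERTK from the surface, and the vitamin K enzymes Ggcx and Vkorc1, which modify GAS6 and protein S, were not called in any comparison. Adam17 was at 110.64 to 129.90 TPM in YS and FL lines against 149.67 to 165.80 TPM in BM lines. Its log2 differences from BM lines, -0.33 for YS and -0.46 for FL lines (limma adjusted p = 0.0290 and 0.0097), did not reach 2-fold. Ggcx was at 6.14 to 11.15 TPM over all lines, with a log2 difference of -0.47 for YS against BM lines (limma adjusted p = 0.0606). Nr1h3 (LXR alpha, a nuclear receptor known to raise Mertk) was at 1.56 TPM or less in every line. Its relative Nr1h2 (LXR beta) was at 68.21 to 110.08 TPM over all lines and was not called in any comparison. The MERTK ligand genes Tub and Tulp1 were at 0.58 TPM or less.

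Over the 96 other genes of apoptotic cell uptake that were listed, 79 passed the filter. Of these, 19 (24.1%) passed for YS against BM, with 12 above and 7 below the BM lines, beside 12.8% of all genes. For FL against BM 18 (22.8%) passed, again 12 above but 6 below, beside 10.3%, and for YS against FL 3 (3.80%), beside 3.79%. Itgb3 and Src, counted here, passed the filter through the YS lines alone and the BM lines alone, so they had to differ. The median log2 difference of the 79 genes was 0.10, 0.24 and -0.16, beside 0.11, 0.09 and 0.02 for all genes.

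**Figure D5:**
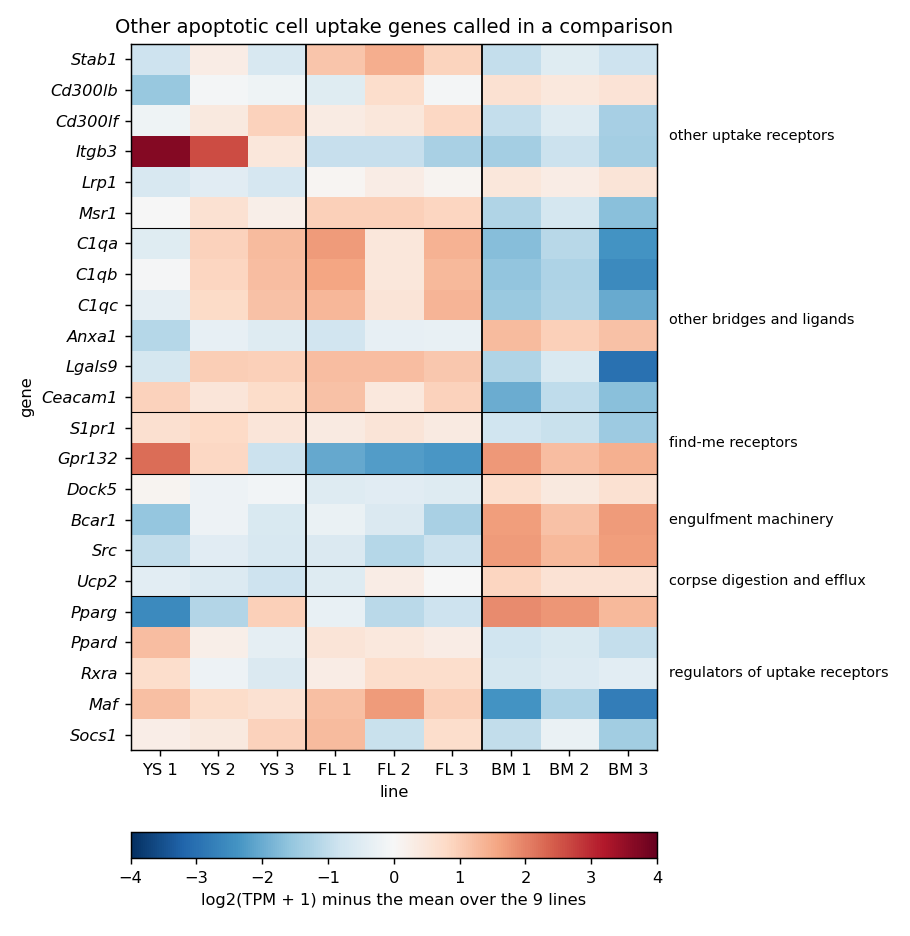
Deviation of log2(TPM + 1) from each gene's mean over the 9 lines, for the other uptake genes (beyond the 8) called in at least 1 comparison. Columns are lines and rows are genes, with red above and blue below the gene's mean. C1qa, C1qb and C1qc were above their means in FL lines and below them in BM lines, and Src and Bcar1 the other way round.

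Bridges and ligands had 6 of 11 tested genes (54.5%) called in each comparison with BM lines, 5 higher and 1 lower. Of all genes, 12.8% were called for YS against BM and 10.3% for FL against BM. The 3 chains of C1q, the complement component that coats dying cells, made up 3 of the 5 higher calls. Their levels moved nearly together over the lines, so these 3 calls are not independent of each other. C1qa measured 1038.89, 2750.43 and 3532.66 TPM (YS lines), 4762.21, 1993.96 and 3842.71 TPM (FL lines) and 444.08, 670.46 and 279.65 TPM (BM lines). Its log2 difference from BM lines was 2.30 for YS lines (SE 0.52, limma adjusted p = 0.0142) and 2.92 for FL lines (SE 0.52, limma adjusted p = 0.0060), and for C1qb and C1qc these differences were 2.10 to 2.89. The gene called lower was Anxa1 (annexin A1), at 264.21 to 468.20 TPM in YS and FL lines against 1124.60 to 1411.11 TPM in BM lines. With limma, 0 of the 11 were called between YS and FL lines, where 3.79% of all genes were called, and 0 had an unadjusted p under 0.05.

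Other uptake receptors had 5 of 15 tested genes (33.3%) called for YS against BM, 3 above and 2 below the BM lines. For FL against BM 3 of 15 (20%) were called, all above. The shares of all genes were 12.8% and 10.3%. Besides Itgb3, the scavenger receptor Msr1 was higher than in BM lines by 1.47 on the log2 scale in YS lines and by 2.11 in FL lines, and Cd300lf, a phosphatidylserine receptor, by 1.32 and 1.47. Stab1 (stabilin 1) was at 111.86 to 165.95 TPM in FL lines, against 33.07 to 74.47 TPM in YS lines and 30.55 to 42.23 TPM in BM lines. It was called higher in FL than in BM lines (log2 difference 1.90, limma adjusted p = 0.0033) and lower in YS than in FL lines (log2 difference -1.54, limma adjusted p = 0.0320). Cd300lb and Lrp1 were the pair called lower in YS than in BM lines (log2 differences -1.11 and -1.02).

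Engulfment machinery had 2 of 19 tested genes (10.5%) called for YS against BM and 3 of 19 (15.8%) for FL against BM, beside 12.8% and 10.3% of all genes. These calls were all lower than in BM lines, although the median log2 difference of the 19 genes was 0.17 and 0.29. Trio and Vav3, like Dock2, stood just under the 2-fold threshold in YS against BM lines (log2 differences 0.99 and 0.98, limma adjusted p = 0.0019 and 0.0051). Besides Dock5, the called genes were the tyrosine kinase Src, at 5.17 to 7.09 TPM in BM lines and 0.81 TPM or less elsewhere (it passed the filter through the BM lines alone), and the docking protein Bcar1, at 7.25 to 11.03 TPM in BM lines and 2.18 TPM or less elsewhere. Among find-me receptors, which sense signals from dying cells, S1pr1 was higher than in BM lines in YS lines (log2 difference 1.70) and FL lines (1.45), and Gpr132 was lower in FL than in BM lines (log2 difference -3.67) and higher in YS than in FL lines (2.94). Corpse digestion and efflux had 1 of 14 tested genes called for YS against BM (7.14%, beside 12.8% of all genes). This was Ucp2, lower in YS than in BM lines (log2 difference -1.26). For FL against BM 0 of 14 were called, beside 10.3% of all genes. The median log2 difference of the 14 genes was -0.17 and 0.18. Abca1 was higher than in BM lines by 0.80 in YS and 0.95 in FL lines on the log2 scale (limma adjusted p = 0.0029 and 0.0013), which did not reach 2-fold. The 2 tested do-not-eat-me genes were not called in any comparison. Of these, Sirpa passed the adjusted p in FL against BM lines (log2 difference 0.66, limma adjusted p = 0.0430) but did not reach 2-fold.

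Regulators of the uptake receptors had 4 of 13 tested genes (30.8%) called in each comparison with BM lines, 3 higher and 1 lower. The shares of all genes were 12.8% for YS and 10.3% for FL lines. The transcription factor gene Maf measured 285.82, 204.59 and 187.92 TPM (YS lines), 282.99, 407.21 and 241.02 TPM (FL lines) and 22.99, 51.44 and 17.44 TPM (BM lines). Its log2 difference from BM lines was 2.97 for YS lines (SE 0.37, limma adjusted p = 0.0020) and 3.41 for FL lines (SE 0.37, limma adjusted p = 0.00096). Pparg, the nuclear receptor that links lipid uptake to gene expression, was at 16.74 to 26.24 TPM in BM lines, 0.25 to 13.00 TPM in YS lines and 2.43 to 4.97 TPM in FL lines, and was called lower in both (log2 differences -2.57 and -2.38). Ppard was higher than in BM lines by 1.16 and 1.21 on the log2 scale, Socs1 was called higher in YS than in BM lines (1.40) and Rxra in FL than in BM lines (1.12), and neither was called between YS and FL lines.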

How the data were processed

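Poly(A)-selected, strand-specific RNA-seq libraries of 3 YS, 3 FL and 3 BM lines were analysed. Per the labels, the submitters' processing notes name Trim Galore 0.6.6, STAR 2.7.9a and RSEM 1.3.3, with no roles, and the genome build and annotation are not given in the sources used here. The authors deposited 1 table of TPM for 24411 gene symbols, to 2 decimals, so reads and depth are unknown and a value of 0 is reported as listed at 0. Values were used as log2(TPM + 1), and genes with 1 TPM or more in at least 3 of 9 libraries (11753) were tested with limma 3.58.1 in R 4.3.3, with group as the only term, an intensity trend and Benjamini-Hochberg adjustment at FDR 0.1 with a 2-fold minimum. No count model was possible. The script was tested on simulated data. Python 3.11.15 and scipy 1.17.1 gave exact permutation tests, correlations and RefSeq promoter windows.

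The 8 genes, the 96 other uptake genes and the cell type markers were chosen with earlier results of these data known. Named were the 8 genes, their relatives and direct partners, and in each list of other uptake genes the called genes, at most the 4 with the largest change, and for each tested gene the 3 genes most like it in pattern, of which some are not reported here. Abca1, Anxa1, Cd300lb, Lrp1, Nr1h2, Rxra, Sirpa, Trio and Vav3 were named outside this rule after their values were seen, as was FL line 2 for Lgals3. Alternatives were other pseudocounts, filters, scalings, variance models, libraries in the fit, thresholds, a replicate block and leaving out each line. Leaving out both YS line 1 and BM line 2 was chosen after seeing the data. Line numbers showed no pairing of the groups over all genes tested (correlations of same-numbered lines' deviations from -0.12 to 0.09). This does not settle it for single genes such as Mfge8.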

Additional observations from a re-analysis of the deposited data

How the results depend on the processing

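TPM holds no depth, so low genes such as Tyro3 and Pros1 carry an unknown counting error. Of the recomputed differences of single members, 410 kept their direction and their side of the threshold, 14 lost a call, 2 gained one (given above for Mfge8, and Havcr2 in YS against BM lines with no fold threshold) and 15 changed sign. The calls of Gas6, Pros1 and Mertk in FL against BM lines, of Axl and Gas6 in YS against BM lines and of Axl and Pros1 in YS against FL lines were made under all 21 alternatives. Axl passed the filter through the YS lines alone, so it had to differ between groups once it was tested. The causes of the changes given here were not tested.

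With no fold threshold, 34, 34 and 16 other uptake genes passed in YS against BM, FL against BM and YS against FL lines. Between YS and FL lines, limma called 0 with no filter (26 at an unadjusted p under 0.05) and 0 with only the 2 groups fitted (19), where members called numbered 2, and leaving out single lines gave 0 (without FL line 2, 20 unadjusted) to 5 (without YS line 2). The call of Pros1 between YS and BM lines was also lost with a pseudocount of 4, no filter (adjusted p = 0.191), quantile normalization (0.109), an FDR of 0.05 and the replicate block (0.104). Differences that were not called changed sign as follows. Mertk in YS against BM lines ranged from -0.11 to 0.45 over single lines left out and was -0.29 with YS line 1 and BM line 2 both out, and Elmo1 ranged from -0.044 to 0.26 and was -0.063. Axl in FL against BM lines was -0.019 with quantile normalization and ranged from -0.024 to 0.068. In YS against FL lines Mfge8 ranged from -0.41 to 0.49 and was 0.14 with both lines out, and Elmo1 ranged from -0.20 to 0.10. The replicate block, fitted although line numbers showed no pairing over all genes, called 2, 3 and 4 members and changed no other call among them. With it, Mfge8 in YS against BM lines kept its log2 difference of -0.64 and was not called. Its SE fell from 0.47 to 0.20 and its limma adjusted p from 0.33 to 0.062.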
